A study of Sus scrofa with 6 samples.

Results

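Cumulus and granulosa cells, the somatic cells of the ovarian follicle, answer the gonadotropins through the receptors encoded by FSHR and LHCGR. Granulosa cells also make steroids with the products of STAR, CYP11A1 and CYP19A1. In the cumulus, PTGS2 and HAS2 serve the making of prostaglandins and of the hyaluronan matrix that spreads the cumulus around ovulation. The transcripts of these 7 genes were examined in pig oocytes that had been stripped of their cumulus. Members were all probe sets to which the array's annotation gives 1 of these symbols and no other. This rule found 11 probe sets of 6 genes, with 4 for CYP19A1, 2 each for STAR and LHCGR, and 1 each for CYP11A1, FSHR and PTGS2. No probe set was annotated HAS2, but 1 was annotated SHAS2, for which RefSeq's gene table gives Has2 as a synonym, and it was added. The 12 probe sets belong to 23999 on the array outside its control features, and the 7 genes to 6765 with a symbol of their own. Probe sets of a gene are numbered below in the order of their identifiers. Array values carry no genome position and no sequence was used here.

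The study compared oocytes of adult pigs (sows) with those of prepubertal pigs (gilts) on Affymetrix porcine arrays, 3 per group, labelled biological replicates. All oocytes came from follicles of 2 to 6 mm, were matured in culture for 42 to 44 h, were freed of cumulus cells with hyaluronidase and vortexing, and were checked for a first polar body, which marks metaphase II. The labels name neither breed, exact age nor how many oocytes or animals stand behind an array, so a p-value reflects only the spread among these arrays. The adult oocytes are labelled developmentally competent and the prepubertal ones incompetent.

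Steroid synthesis starts when STAR carries cholesterol into the mitochondrion, where CYP11A1 cuts its side chain to give pregnenolone. Later steps lead to androgens, which CYP19A1, the aromatase, turns into estrogens. FSHR and LHCGR are receptors for follicle-stimulating and luteinizing hormone that act mainly through cAMP and protein kinase A. After the luteinizing hormone surge the cumulus switches on PTGS2, the inducible cyclooxygenase of prostaglandin synthesis, and HAS2, the enzyme that extrudes hyaluronan.

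The value table holds no detection calls, so the array background was read from 59 control probe sets for bacterial genes (dap, lys, phe, thr and trp) and artificial tag sequences. Their highest signal, in MAS5 signal units on a linear scale, was 26.7, 25.2 and 22.6 on adult arrays 1, 2 and 3 and 18.9, 32.6 and 24.1 on prepubertal arrays 1, 2 and 3. Their median lay between 2.00 and 4.46 per array. The labels do not say whether RNAs of the bacterial genes were added to the samples. These controls were used as background because their signals were low. Of all 23999 probe sets, 30.6% exceeded the highest control on all 6 arrays and 41.7% on no array. The arrays were deposited at different overall levels, with 2% trimmed means from 106 to 161.

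Signals of the cumulus and steroidogenic probe sets lay almost wholly within the range of these controls in both groups. LHCGR probe set 2 lay high in that range, above the 95th percentile of the controls on 5 of 6 arrays. Of 72 signals (12 probe sets on 6 arrays), 2 exceeded the highest control of their array, 1 in an adult and 1 in a prepubertal sample. The signals ran from 0.653 to 29.9 with a median of 4.23. Of the 12 probe sets, 10 exceeded the highest control on no array and 0 did so on all arrays. In 10 of 12, every signal was under the median of its array, a measure for which the share of all probe sets was not counted. In RNA from whole samples, fewer cells of a type and less RNA per cell cannot be told apart.

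**Figure D1:**
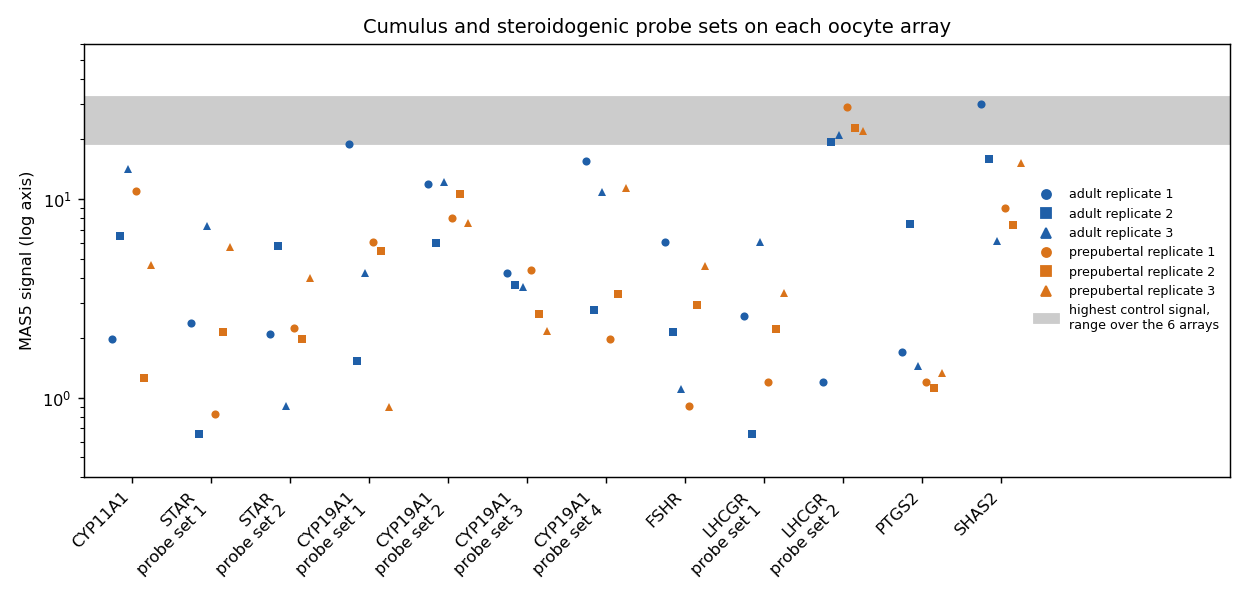
MAS5 signal (log axis) of each cumulus or steroidogenic probe set on the 3 adult (blue) and 3 prepubertal (orange) oocyte arrays, 1 point per array. The grey band runs from the lowest to the highest of the 6 arrays' highest control signals (18.9 to 32.6), and nearly all points lie under it, with 2 of 72 above their own array's highest control.

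Among the genes that begin steroid synthesis, CYP11A1 (Entrez Gene 403329) had signals of 1.98, 6.50 and 14.1 in adult replicates 1, 2 and 3 and of 10.9, 1.26 and 4.63 in prepubertal replicates 1, 2 and 3. Its means were 7.53 ± 6.14 and 5.59 ± 4.89 (SD, n = 3 arrays each), the groups overlapped, and the spread within a group exceeded the difference between the groups. STAR (396597) was measured by probe set 1 at 2.36, 0.653 and 7.29 in adult and 0.823, 2.14 and 5.72 in prepubertal oocytes. STAR probe set 2 read 2.09, 5.80 and 0.908 against 2.24, 1.96 and 4.02. The array brightest for the first STAR probe set, adult replicate 3, was the dimmest for the other, so the pair did not order the arrays alike.

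Aromatase was covered by 4 probe sets of CYP19A1 (403331), and 0 of their 24 signals passed the highest control. Probe set 1 read 18.7, 1.52 and 4.21 in adult and 6.03, 5.45 and 0.893 in prepubertal oocytes, with the first adult value 12.3 times the lowest of that group. Probe set 2 stayed closer together, at 11.8, 5.96 and 12.1 against 7.99, 10.6 and 7.58. The dimmest, probe set 3, had 4.24, 3.67 and 3.61 against 4.38, 2.63 and 2.17, and probe set 4 had 15.5, 2.76 and 10.8 against 1.97, 3.33 and 11.3. In each of the 4 the groups overlapped.

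The pig has further aromatase genes, CYP19A2 and CYP19A3, which flank CYP19A1 in RefSeq's gene order, with 0 other genes between CYP19A1 and either of them. Copies this alike can share hybridization, so a signal cannot be assigned to 1 copy with certainty. The array holds 9 more aromatase probe sets, 8 annotated CYP19A3 alone and 1 annotated to all 3 genes. Of their 54 signals, 3 exceeded the highest control, all 3 from 1 CYP19A3 probe set, which read 11.4, 42.4 and 18.5 in adult and 37.5, 3.38 and 29.7 in prepubertal oocytes. CYP19A3 probe sets whose identifiers differ from that one only in the suffix read 0.127 to 0.785 and 1.84 to 9.30. The probe set shared by the 3 genes had 8.64, 11.4 and 12.1 in adult and 3.35, 2.99 and 4.31 in prepubertal oocytes, without overlap but under the highest control on all 6 arrays. Its log2 difference was −0.45 ± 0.19 (SE, limma adjusted p = 0.495, unadjusted p = 0.0376), and 2 of the 9 had groups that did not overlap, against 14.5% of all probe sets.

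Of the gonadotropin receptors, FSHR (397679) had signals of 6.04, 2.14 and 1.11 in adult and 0.907, 2.93 and 4.58 in prepubertal oocytes, with overlapping groups. LHCGR (407247) read differently in its 2 probe sets. Probe set 1 was at 2.58, 0.653 and 6.03 in adult and 1.19, 2.21 and 3.37 in prepubertal oocytes. Probe set 2 had 1.20, 19.2 and 20.9 in adult and 29.1, 22.7 and 21.8 in prepubertal oocytes. It had the highest mean of the 12, 19.1, and exceeded the 95th percentile of the controls on 5 of 6 arrays but the highest control only in prepubertal replicate 1. Every prepubertal value lay above every adult one, but only by the narrow gap between 20.9 and 21.8, with adult replicate 1 far lower at 1.20.

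LHCGR probe set 2 was also the only one of the 12 with a mean log2 value above the median of all probe sets (5.08 against 5.00). Among 4600 genes at or above that median, the pattern over the 6 arrays most like it after quantile normalization was that of TMEM223 (Pearson r = 0.993) and of YIPF5 (r = 0.974), given as a description. TMEM223 read 4.37, 25.3 and 26.6 in adult and 41.5, 26.1 and 28.4 in prepubertal oocytes. It shared the low value of adult replicate 1 and the high one of prepubertal replicate 1. YIPF5 read 1793, 1572 and 1832 in adult and 1833, 1418 and 1476 in prepubertal oocytes, so that its signals as deposited had neither the low first adult value nor higher prepubertal ones.

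Of the cumulus expansion genes, PTGS2 (397590) had signals of 1.70, 7.48 and 1.45 in adult and 1.20, 1.12 and 1.33 in prepubertal oocytes. All 6 values lay under the highest control, and the groups were separated by the gap between 1.33 and 1.45. SHAS2 (397120), the pig hyaluronan synthase 2 gene, read 29.9, 15.8 and 6.11 in adult and 8.99, 7.39 and 15.1 in prepubertal oocytes. Adult replicate 1 gave the highest signal of the whole panel there and the only adult one above its array's highest control.

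The comparison of prepubertal with adult oocytes asks whether these follicle transcripts differed between eggs of low and high developmental capacity. None of the 12 probe sets differed past the threshold. In the limma fit over 23999 probe sets on log2(signal + 16), 0 of 12 had an adjusted p under 0.05, against 0.00417% of all probe sets, and 0 had an unadjusted p under 0.05, against 9.43% of all. Quantile normalization gives all arrays the same distribution, and with it the count was again 0 of 12 by adjusted (0.00833% of all) and by unadjusted p (7.85% of all). The lowest adjusted p of the 12 was 0.664 as deposited and 0.729 after quantile normalization. With nearly all values at or under the highest control on both sides, folds between the groups have no meaning here. The differences below describe the fit on the log2(signal + 16) scale only.

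As deposited, 11 of 12 log2 differences lay below 0, with a median of −0.06 beside −0.11 over all probe sets, and after quantile normalization 9 of 12 did, with a median of −0.03 beside 0.00017. Standard errors ran from 0.14 to 0.35. The exception was LHCGR probe set 2 at 0.52 ± 0.35 (95% interval −0.22 to 1.27, limma adjusted p = 0.664), which dropped to 0.17 without adult replicate 1. Averaged with LHCGR probe set 1, the difference was 0.23. A filter at the median of all probe sets (5.00 on the log2 scale) left only this probe set of the 12 to be tested, with a limma adjusted p of 0.466. It passed through its prepubertal mean of 5.34, its adult mean being 4.82, and the other 11 were not tested there. The largest value below 0 was that of SHAS2, −0.27 ± 0.32 (95% interval −0.96 to 0.41, limma adjusted p = 0.822), which became −0.01 without adult replicate 1. CYP11A1 had −0.12 ± 0.24 (95% interval −0.63 to 0.39) and PTGS2 −0.17 ± 0.14 (−0.47 to 0.13), which became −0.03 without adult replicate 2, the array of its 7.48 signal. The intervals of STAR were −0.38 to 0.31 and −0.31 to 0.29, that of FSHR was −0.33 to 0.30, and those of the 4 CYP19A1 probe sets together reached from −0.79 to 0.45. Groups did not overlap in 2 of 12 probe sets, against 14.5% of all. LHCGR probe set 2 had the higher prepubertal values, against 2.81% of all, and PTGS2 the lower ones, against 11.7%.

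**Figure D2:**
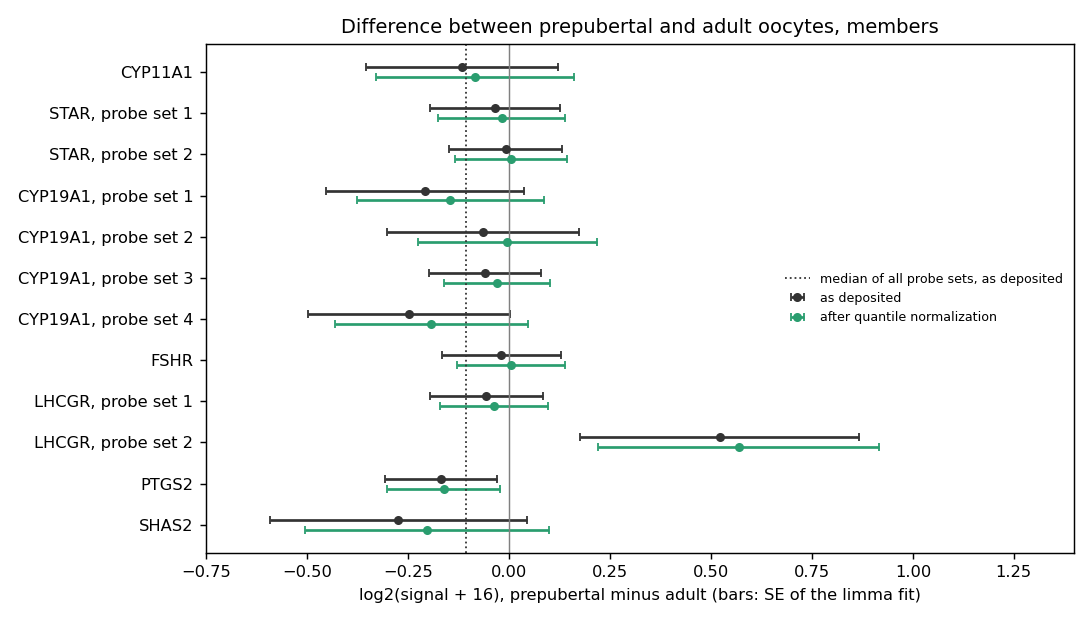
Difference in log2(signal + 16) between prepubertal and adult oocytes for each cumulus or steroidogenic probe set, as deposited (black) and after quantile normalization (green), with bars for the standard error of the limma fit (3 arrays a group). The dotted line marks the median of all probe sets as deposited (−0.11), and the values lie between −0.27 and 0.57.

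Signals varied widely between replicates. Within a group the highest signal of a probe set was a median of 5.31 times the lowest, and up to 17.4 times for LHCGR probe set 2 in adult oocytes. The added constant of 16 damps this spread, so that the median within-group SD was 0.20 on the log2(signal + 16) scale, against 0.29 over all probe sets.

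Genes typical of the oocyte gave a different picture on the same arrays. Of 16 oocyte genes measured, 13 exceeded the highest control on all 6 arrays, DDX4 on none, and GJA4 and KIT on 1 array each. Their median, over the brightest probe set of each gene, lay at the 91.6th percentile of the arrays. The median of the 7 cumulus and steroidogenic genes was at the 26.8th percentile counted the same way and at the 20.6th over all 12 probe sets. KPNA7, an importin alpha of oocytes and early embryos, read 12970 to 15053, and WEE2, the kinase that restrains CDK1 in oocytes, 9591 to 12742. The oocyte's secreted factors GDF9 and BMP15 read 190 to 503 and 143 to 236, and the egg coat gene ZP3 383 to 675. ACTB, the cytoskeletal beta-actin gene, read 266 to 576 in 1 probe set and 612 to 974 in the other. For comparison, 43 genes of unrelated tissues such as liver, muscle and pituitary included 4 above the highest control on all arrays and 19 on none. Their median lay at the 39.5th percentile, and the brightest, the clotting factor gene F9, read 96.2 to 136. Over the 72 signals of the cumulus and steroidogenic probe sets, a median of 34.8% of these unrelated-tissue probe sets were dimmer on the same array. Probes differ in brightness for reasons of sequence, so these ranks describe signals, not transcript numbers.

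**Figure D3:**
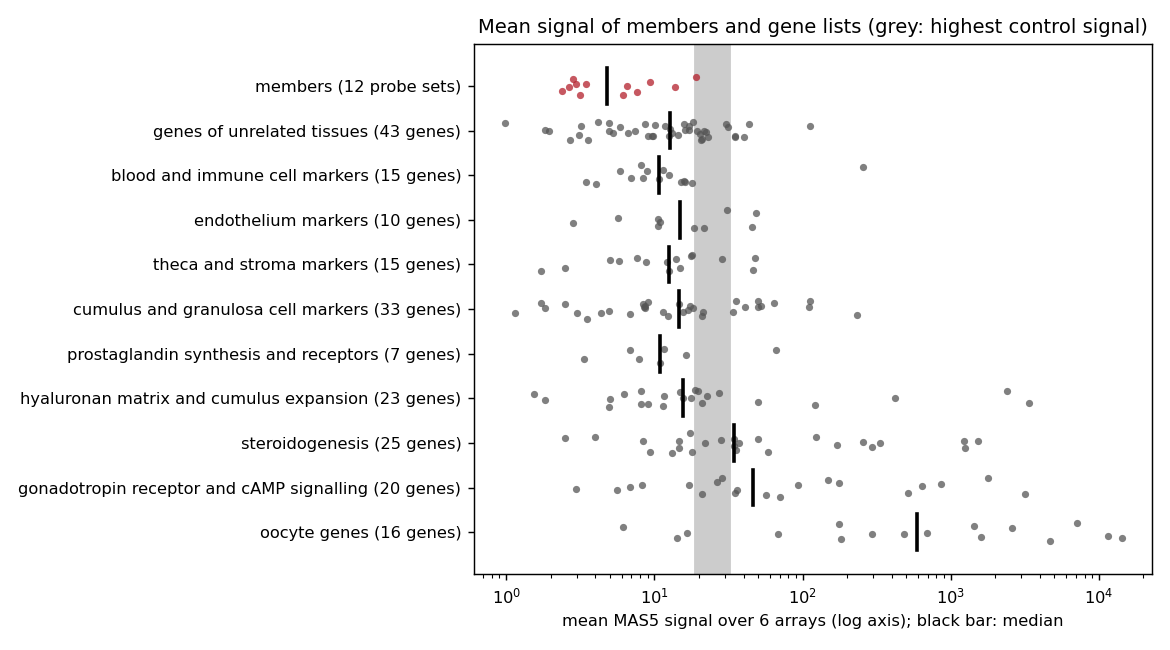
Mean MAS5 signal over the 6 arrays (log axis) of the 12 cumulus or steroidogenic probe sets (red) and of the genes of each list (grey points, brightest probe set of a gene), with the median as a black bar. The grey band spans the highest control signals of the 6 arrays (18.9 to 32.6), and the red points lie at or under it while most oocyte genes lie above.

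A low signal of a probe set does not by itself show that a transcript was missing. Signals of the amplified RNA were lower toward 5′ ends, to a degree that differed between transcripts: the array's control probe sets for actin read 4386 to 5305 at the 3′ end and 1.05 to 14.7 at the 5′ end. Those for GAPDH read 163 to 189 and 1.55 to 16.7. For EF1A, an elongation factor, they read 5836 to 8166 and 96.4 to 283, so its 5′ end stayed above the highest control on every array. Of 5 further GAPDH probe sets, whose place in the transcript is not known here, 2 exceeded the highest control on all arrays, 1 on 4 arrays and 2 on none. How far each cumulus or steroidogenic probe set lies from its transcript's 3′ end is not given in the sources used here, and the part of this distance in the low signals was not tested.

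Some other genes of the same processes were measured well above background and others at it, from lists of related genes (several genes stand in more than 1 list). Beside the counts of these and later lists, 30.6% of all probe sets exceeded the highest control on all arrays and 41.7% on none. The lists count each gene by its brightest probe set, so the shares are not strictly alike. Of 25 further genes of steroid synthesis and cholesterol supply, 10 exceeded the highest control on all arrays and 6 on none. The brightest were HSD17B12, which reduces ketoacyl-CoA in fatty acid elongation and has also been linked to estrogen formation, at 1215 to 1841, and FDX1, the ferredoxin that feeds electrons to mitochondrial P450 enzymes such as CYP11A1, at 1058 to 1393. CYP17A1, the P450 enzyme of androgen synthesis in theca cells, read 1.37 to 5.28. HSD3B1, which makes progesterone from pregnenolone, read 26.8 to 42.5 in a probe set that its name marks as open to cross-hybridization and 9.10 to 25.8 in the other. NR5A1, a nuclear receptor that drives steroidogenic genes, read 18.0 to 86.0 in its brighter probe set and 11.4 to 59.2 in the other, and NR0B1, its repressor, 220 to 279. CYP17A1, HSD3B1, NR5A1 and NR0B1 are outside the rule for named genes and were picked with their values known.

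For gonadotropin and cAMP signalling, 20 genes were measured, 10 above the highest control on all arrays and 4 on none. They include the hormone subunit genes CGA, FSHB and LHB, which are not downstream of the receptors. LHB, at 27.7 to 39.5, is among the 10 (picked with its values known). FSHB and LHB also stand in the list of unrelated tissues. PRKAR1A, a regulatory subunit of protein kinase A, read 2741 to 3912. GNAI1, an inhibitory G protein subunit, read 1154 to 3038, while another GNAI1 probe set read 1.11 to 25.1, above the highest control on 1 array. GNAS, the stimulatory G protein subunit, read 35.6 to 100 (picked with its values known). In the prostaglandin list, 1 of 7 genes was above the highest control on all arrays: PTGES3, which is also the chaperone partner p23, at 55.6 to 73.2. Another PTGES3 probe set read 0.427 to 11.3, above the highest control on no array. PTGDS, a prostaglandin D synthase, read 10.5 to 21.3. PTGS1, the constitutive cyclooxygenase, read 3.09 to 29.5, and PTGES, an inducible prostaglandin E synthase, 1.01 to 14.9 (both picked with their values known).

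Hyaluronan genes ranged from background to some of the brighter signals. HAS3, another hyaluronan synthase gene, had 4753, 2922 and 3847 in adult and 3391, 2563 and 2747 in prepubertal oocytes, all above the highest control, where SHAS2 exceeded it once. HAS3 was read by 1 probe set, and its log2 difference was −0.39 ± 0.20 as deposited and −0.12 after quantile normalization (limma adjusted p = 0.576 as deposited). UGP2, which makes the UDP-glucose from which a hyaluronan precursor is built, read 1905 to 2955. Of the genes whose proteins help link the cumulus matrix, TNFAIP6 read 0.230 to 7.96 and PTX3 0.675 to 19.7 in its brighter probe set, both at background. The heavy chain genes ITIH1, ITIH2, ITIH3 and ITIH4 exceeded the highest control on 0, 2, 1 and 3 arrays, with ITIH4 at 18.8 to 38.1. VCAN, the proteoglycan versican, read 24.2 to 75.9 in 1 probe set and at most 18.4 in the other 4. TNFAIP6, PTX3, VCAN and the ITIH genes were likewise picked with their values known. Of the 23 genes of this list, 4 exceeded the highest control on all arrays and 11 on none.

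**Figure D4:**
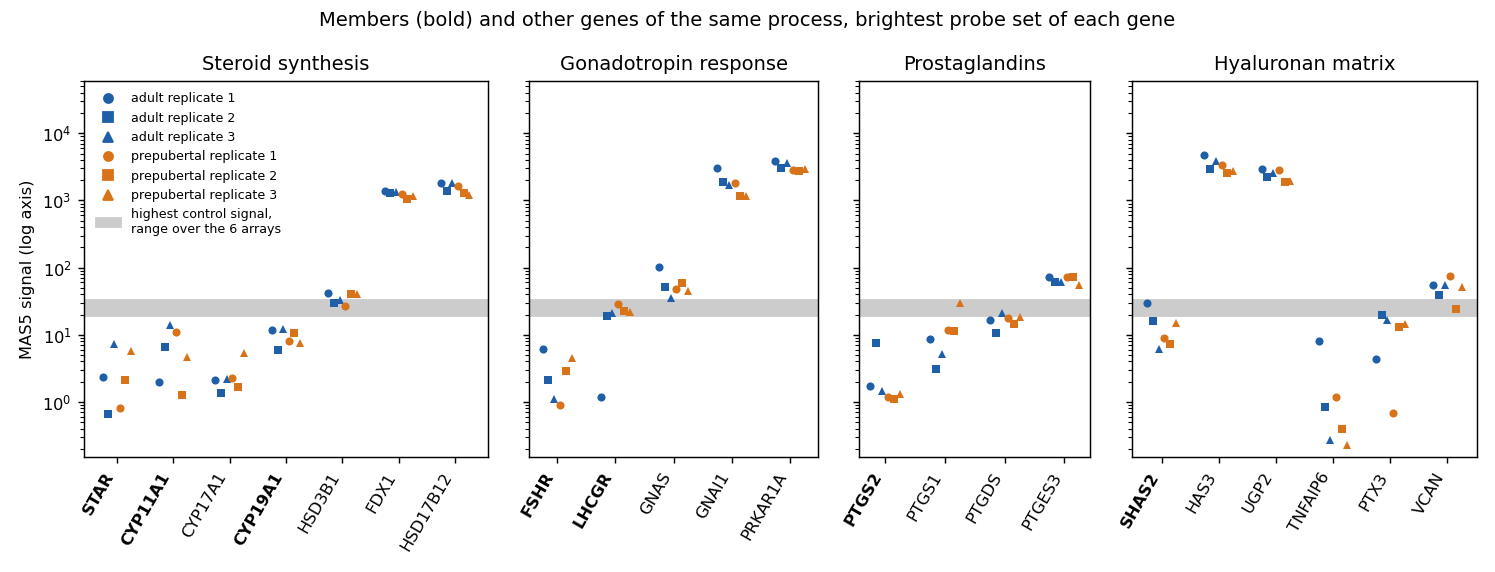
MAS5 signal (log axis) on each of the 3 adult (blue) and 3 prepubertal (orange) arrays for the cumulus and steroidogenic genes (bold) and other genes of the same process, brightest probe set of each gene. STAR, CYP11A1, CYP19A1, FSHR, PTGS2 and most SHAS2 and LHCGR values lie at or under the grey band of highest control signals (18.9 to 32.6). FDX1, HSD17B12, PRKAR1A, GNAI1, HAS3 and UGP2, named as the brightest genes of their lists, read 1058 or more on every array. Other genes of these lists lay at background, such as CYP17A1 (at most 5.28) and TNFAIP6 (at most 7.96).

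In the limma fit over all probe sets, 0 of the 37 steroidogenesis, 34 cAMP, 10 prostaglandin and 40 hyaluronan probe sets passed an adjusted p of 0.05 as deposited or after quantile normalization. Those with an unadjusted p under 0.05 numbered 2, 3, 0 and 3 as deposited (against 9.43% of all) and 3, 4, 1 and 2 with quantile normalization (against 7.85%). The median log2 differences of these lists were −0.03, −0.16, 0.04 and −0.04 as deposited, beside −0.11 for all probe sets, and 0.10, −0.01, 0.11 and 0.05 after quantile normalization. With the filter at the median, 1 cAMP probe set passed (of PRKACA, a catalytic subunit of protein kinase A, with values of 5.29, 36.0 and 61.2 in adult and 95.9, 117 and 107 in prepubertal oocytes, limma adjusted p = 0.0441, against 0.298 without the filter); 0.475% of the 12000 probe sets kept passed there, 0.0333% higher and 0.442% lower in prepubertal oocytes.

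Markers of the cells that surround an oocyte were read beside these values. Of 33 measured markers of cumulus and granulosa cells, 7 exceeded the highest control on all arrays and 16 on none. The brightest were GATA4, a transcription factor, at 188 to 281 (a second GATA4 probe set read 1.09 to 7.46), and INHBA, an activin subunit, at 90.3 to 135. The other 5 were FST, SERPINE2, GSTA1, INHA and HSD3B1. FST, the activin antagonist follistatin, read 89.9 to 154, while another FST probe set read 10.1 to 22.4, above the highest control on no array. SERPINE2 read 44.8 to 81.4, GSTA1 26.8 to 91.4 and the inhibin subunit gene INHA 23.9 to 61.6. AMHR2, the receptor for anti-Müllerian hormone, exceeded the highest control on 5 arrays, and AMH, FOXL2 and KRT18, at most 9.44, 20.2 and 1.51, on none. All but GATA4 and INHBA were picked with their values known. The summed signal of the cumulus list was 878 to 1209 in adult and 900 to 997 in prepubertal oocytes, so the groups overlapped. Theca and stroma markers summed to 241 to 318 in adult and 192 to 240 in prepubertal oocytes. The groups were separated only by the gap between 241 in adult replicate 2 and 240 in prepubertal replicate 3. These sums were not scaled for the different overall levels of the arrays (2% trimmed means of 123 and 115 for that pair). Log2 differences of the theca and stroma genes had a median of −0.19 in the deposited values (−0.11 over all probe sets) and of −0.10 with quantile normalization (0.00017 over all). Of 15 theca and stroma genes, 2 exceeded the highest control on all arrays, the brightest being PDGFRB (36.0 to 76.9) and COL1A2 (34.5 to 53.2). Endothelial markers summed to 200 to 232 and 174 to 215, with 1 of 10 genes, PECAM1 (37.0 to 57.2), above on all arrays, and ESAM next (15.5 to 76.6). Blood and immune markers summed to 399 to 565 and 258 to 486, with 1 of 15 above on all arrays: HBB, beta-globin, at 127 to 428. CD163, a macrophage receptor, was next, at 9.61 to 33.4. No marker signal was listed at exactly 0. Of the 51 cumulus, 25 theca, 21 endothelial and 19 blood probe sets, 0 passed the limma threshold as deposited or after quantile normalization. Those with an unadjusted p under 0.05 numbered 0, 2, 1 and 0 as deposited (9.43% of all) and 1, 2, 1 and 0 with quantile normalization (7.85% of all). The share of these signals that came from cells other than the oocyte was not tested.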

How the data were processed

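The authors deposited a linear MAS5 signal intensity for each probe set (MAS5 is named in the submitters' processing notes). The sources used here give neither its version nor its scaling target. Poly(A) RNA was amplified in 2 cycles to biotinylated cRNA, per the labels' protocols. The table held 24123 probe sets, of which 124 controls were left out of tests. Of the others, 10069 had 1 gene symbol in the platform annotation, 198 had several and 13732 were not listed. Symbols were updated through RefSeq's gene table for Sscrofa11.1. Sequences were not used, and genome positions served only for the order of genes in that table.

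Differences (prepubertal minus adult) were fitted on log2(signal + 16) by limma 3.58.1 (R 4.3.3; eBayes, intensity trend). The 2-sided p-values were adjusted over all 23999 probe sets by Benjamini-Hochberg, with a threshold of 0.05. No filter was used, because it would leave dim probe sets untested. Adjusted p-values are limma's. The number of arrays limits the precision. A simulation asked whether the fit finds log2 changes of 2 in probe sets over a signal of 100. It recovered 100% of them, with a false share of 4.65%. Its noise was normal, independent between arrays and set by signal level alone, without the differences in overall level of the deposited arrays. Recovery in the real arrays may therefore differ. The highest member signal was 29.9, so this simulation cannot show how well changes in the members would be found. The members, gene lists and tests were chosen with earlier results of these data known, and the background controls after seeing the values. Named genes were all members, the 2 brightest genes of each list, called list members, the 2 genes most like a member at or above the median, and GDF9, BMP15, ZP3, ACTB and GAPDH. Alternatives were other normalizations, constants, filters, variance models, weights and left-out arrays.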

Additional observations from a re-analysis of the deposited data

How the results depend on the processing

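The count of 0 of the 12 cumulus and steroidogenic probe sets past the limma threshold held in every alternative that tested all 12, including 0 without any 1 array. The filter at the median left 1 of them to test, which was not called. Over all these fits the members had a lowest adjusted p of 0.466 and a lowest unadjusted p of 0.0888. The count over all probe sets was 1 and depended on the setting: 2 after quantile normalization, 3 with arrays scaled to a common trimmed mean, 4 with median centring, 18 with a constant of 1, 57 with a filter at the median, 7 with array weights and 0 without the intensity trend (where limma gave 2195 with an unadjusted p under 0.05). It was 38 without prepubertal replicate 1 and 0 without any other array, where limma gave 1485 to 2764 with an unadjusted p under 0.05. With the replicate number as a block (replicate block) it was 534, and 8 after quantile normalization with the replicate block, an alternative chosen after seeing the data. All 12 stayed uncalled there. Same-numbered arrays share a replicate number in their labels, and whether they were paired is not known here. Their deviations from the group means correlated at 0.0936, 0.0633 and 0.00878, and those of arrays with different numbers at −0.0842 to 0.0264. Each adult array correlated best with the prepubertal array of its number, but prepubertal replicate 3 correlated best with adult replicate 2 (0.0264). The median percentile of 20.6 became 34.8 as the share of unrelated-tissue probe sets that were dimmer, and 57.6 as the share of the background controls that were dimmer, chosen after seeing the data.

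Of 184 recomputed values of single probe sets, 28 took the other sign and 0 crossed the threshold. After quantile normalization, with and without the replicate block, STAR probe set 2 was 0.0052 and FSHR 0.0044. With a common trimmed mean the STAR probe sets were 0.018 and 0.0205, CYP19A1 probe set 2 0.045 and FSHR 0.037. With median centring they were 0.0502 and 0.077, 0.021 and 0.066, with CYP19A1 probe set 3 at 0.025 and LHCGR probe set 1 at 0.028. STAR probe set 2 was 0.088 with a constant of 1 and 0.0401 with array weights, which put FSHR at 0.051. Without 1 array the values ran from −0.29 to 0.078 for CYP11A1, −0.41 to 0.086 for CYP19A1 probe set 1, −0.094 to 0.089 for FSHR, −0.15 to 0.052 for LHCGR probe set 1, −0.14 to 0.10 for STAR probe set 1 and −0.085 to 0.098 for STAR probe set 2. With all probe sets of a gene averaged, LHCGR was 0.23, CYP19A1 −0.14 and STAR −0.02, all uncalled. The cause of these changes was not tested. Signals at background limit all of them.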
